A study of Homo sapiens with 12 samples.

Results

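The nuclear genes for the subunits of the mitochondrial respiratory chain and the ATP synthase were examined in MDA-MB-231 cells in which the histone deacetylase HDAC5 or the histone demethylase LSD1 (gene KDM1A) had been targeted with short hairpin RNA (shRNA). Members were taken by name: single-gene probe sets whose symbol begins NDUFA, NDUFB, NDUFC, NDUFS or NDUFV, the SDH subunits, UQCR and CYC1, COX4 to COX8, and ATP5, under older or current names. Assembly factors and pseudogenes were left out, and a gene measured by several probe sets was represented by its brightest one on average. This gave 68 genes of the 11963 genes measured: 28 of complex I, 3 of complex II, 7 of complex III, 14 of complex IV and 16 of complex V. NDUFA4 and NDUFA4L2, now named COXFA4 and COXFA4L2, were placed with complex IV. The tissue isoforms COX4I2, COX6B2 and COX8C were not analysed here, and 0 of the 13 subunits encoded by mitochondrial DNA could be matched, so every value below concerns a nuclear transcript.

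Complexes I and II feed electrons from NADH and succinate to coenzyme Q, complex III passes them to cytochrome c, and complex IV hands them to oxygen. Complexes I, III and IV pump protons across the inner mitochondrial membrane, and complex V, the ATP synthase, uses the returning protons to make ATP. Complexes I, III, IV and V combine catalytic subunits with accessory ones, while complex II consists of catalytic subunits and membrane anchors. The nuclear genes of the subunits are commonly expressed together, and MDA-MB-231 is known as a strongly glycolytic line that nevertheless respires.

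RNA was measured on 12 Affymetrix arrays, 3 per group, from MDA-MB-231, an established triple-negative breast cancer cell line kept in ordinary culture. All cells received lentiviral particles, carrying HDAC5 shRNA, LSD1 shRNA or a scramble shRNA. The first scramble set is tagged for LSD1 (replicates A, B and C) and served the LSD1 shRNA arrays (replicates 1, 2 and 3). The other is untagged (replicates 1, 2 and 3) and was taken as the control of the HDAC5 shRNA arrays (replicates 1, 2 and 3). The sources used here do not give the hairpin sequences or the number of hairpins per target. The replicates are called biological, but nothing says whether they were separate cultures or transductions, so p-values measure the spread between these arrays. All levels are RMA values on a log2 scale, and they compare arrays for 1 probe set, not 1 gene with another.

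The targeted transcripts fell in their own experiments. HDAC5 went from 7.40 ± 0.17 (SD, n = 3) with scramble to 6.29 ± 0.18 with HDAC5 shRNA, and KDM1A from 9.72 ± 0.09 with scramble to 6.63 ± 0.17 with LSD1 shRNA. The mesenchymal markers of the line were well expressed, with group means between 9.40 (FOSL1) and 13.80 (VIM), and 6 of the 7 listed were measured. With HDAC5 shRNA 3 of these 6 were called higher and 1 lower, beside 21.3% of all genes higher and 23.2% lower. With LSD1 shRNA none of them was called. Of 7 luminal breast markers, the oestrogen and progesterone receptor genes ESR1 and PGR had group means of at most 6.42 and 2.84, while GATA3 stood at 8.10 to 9.15 and KRT19 at 10.04 to 10.59. With HDAC5 shRNA 1 of the 7 was higher (GATA3, 0.29) and 2 were lower (TFF1, -1.14, and SPDEF, -0.23), and with LSD1 shRNA none was called. Of the markers of other cells, 0 of 5 blood genes were called with either shRNA. With HDAC5 shRNA, 3 of 6 fibroblast or endothelial genes (50%, beside 23.2% of all genes) were lower (PECAM1 by the most, -0.62). With LSD1 shRNA the matrix gene LUM was higher by 1.54, from a mean of 2.61 to 4.15. Both means lay below the lower quartile of the signal on those arrays (5.59 to 5.69), so LUM stayed dim. Over the members, the median SD of a gene across the 3 arrays of a group was 0.05 and 0.04 in the HDAC5 experiment (scramble, shRNA) and 0.04 and 0.07 in the LSD1 experiment. The median standard error (SE) of a member's change was 0.04 with HDAC5 shRNA and 0.07 with LSD1 shRNA. For ACTB, the excess of the 3′ over the 5′ control signal, a measure of RNA integrity, was 0.90 ± 0.06 with scramble and 0.68 ± 0.08 with HDAC5 shRNA. It was 1.30 ± 0.06 with scramble and 1.43 ± 0.12 with LSD1 shRNA. For GAPDH the same measure changed by -0.017 with HDAC5 shRNA and by 0.040 with LSD1 shRNA. The exact two-sided permutation p was 0.1, the smallest that 3 arrays against 3 can give, for ACTB with HDAC5 shRNA and for GAPDH with LSD1 shRNA, and 0.2 for the other two. The part of these differences in the results below was not tested.

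With HDAC5 shRNA, more subunits were called higher than lower in complexes I, III and V. In complex II 1 of 3 was called higher, and in complex IV none was. A gene was called changed at an adjusted p under 0.05 in limma (Benjamini-Hochberg over all 11963 genes). By that rule 34 of 68 members, or 50%, were called, beside 44.5% of all genes, so the share called was close to the background. By direction, 22 members (32.4%) were higher, beside 21.3% of all genes, and 12 (17.6%) were lower, beside 23.2%. The 22 include ATP5MG, whose probe sets disagreed in direction, and without it 21 were higher. The median change of the members was 0.06 and that of all genes -0.02. With each array centred on its median, 28 members were higher and 7 lower, and 80% of calls were then higher instead of 64.7%. Centring also moved the median change of all genes, from -0.02 to 0.02, and the shares of all genes called under it are not given here. In 44 members (64.7%) the 3 shRNA arrays did not overlap the 3 scramble arrays, beside 50.8% of all genes. Of these 29 lay above their scramble arrays, beside 24.1% of all genes, and 15 lay below, beside 26.6% of all genes. The changes were small: the largest was 0.56 (ATP5MC1, 1.47-fold), and 0 members were called with a change over 1.5-fold, against 1324 of all genes. Of the calls, 13 of the 22 increases and 3 of the 12 decreases were kept in every alternative analysis in which the gene was measured.

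**Figure D1:**
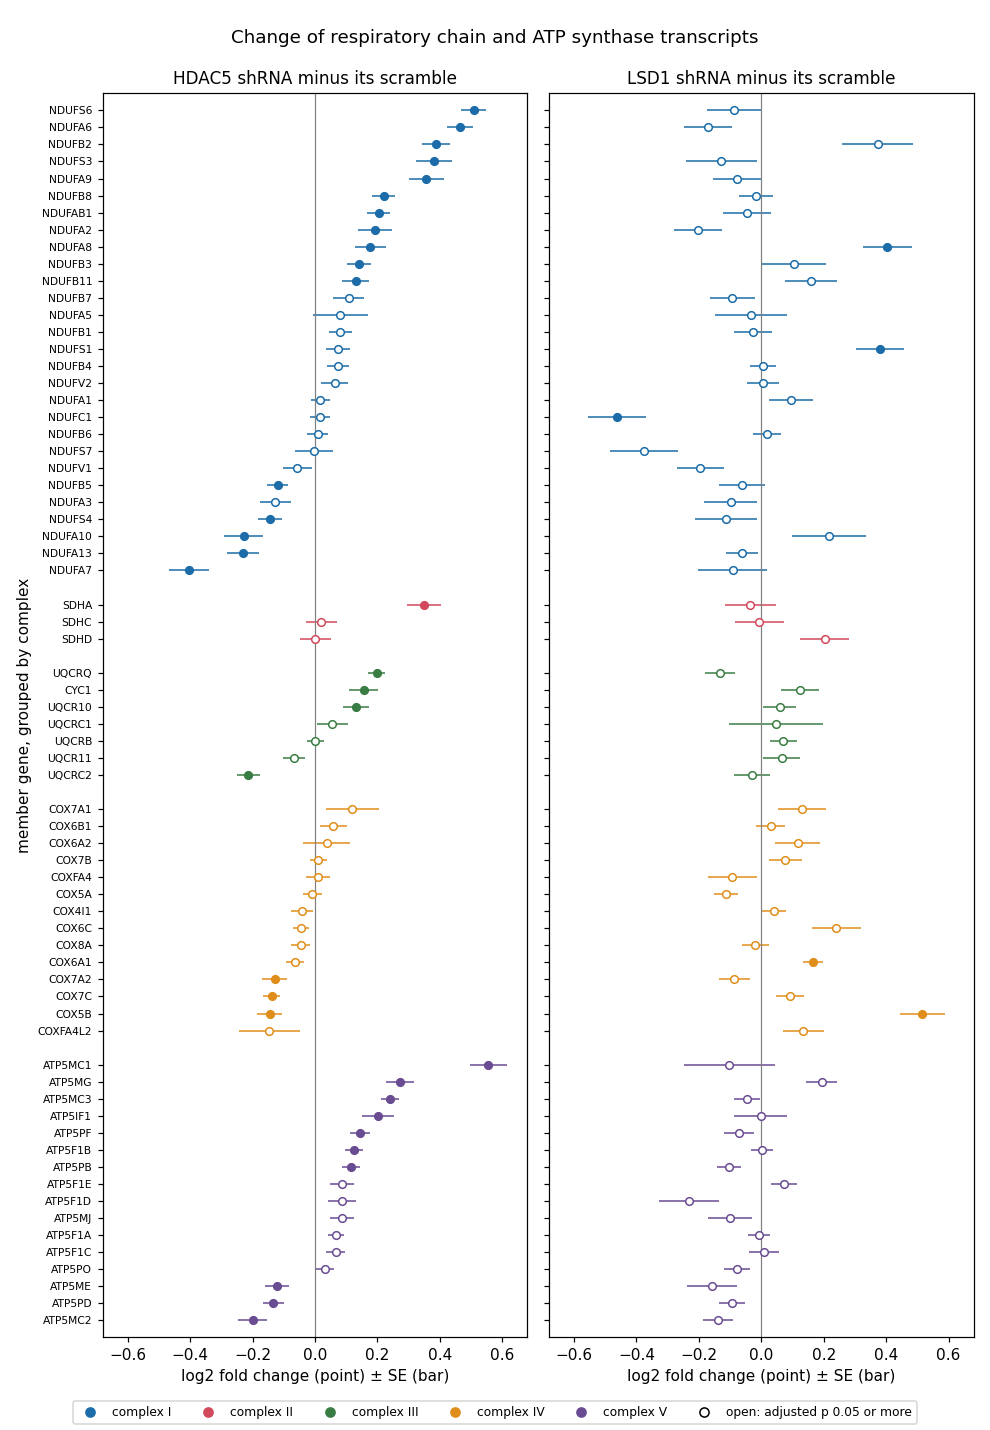
Change of each of the 68 members (shRNA minus its own scramble arrays, log2, horizontal axis) with HDAC5 shRNA on the left and LSD1 shRNA on the right, grouped and coloured by complex, with bars for the SE from limma. Filled symbols are members called at an adjusted p under 0.05: 22 higher and 12 lower with HDAC5 shRNA, 4 higher and 1 lower with LSD1 shRNA.

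The promoters of 5 members on which the results turn are shown, taken from RefSeq (GRCh38.p14) as the 250 bases before the first listed start, 5′ to 3′ on the gene's strand. They are those of the 3 members that rose most with HDAC5 shRNA (ATP5MC1, NDUFS6 and NDUFA6), of the member that fell most (NDUFA7) and of the member that differed most between the shRNAs (COX5B). Capitals mark exact matches to motifs of factors known for nuclear respiratory genes, searched on both strands. The NRF1 palindrome is given by name, and the other motifs were CCGGAAG for the ETS family (which includes GABP), AAGATGGCG for YY1, GGGCGG for SP1, TGACGTCA for CREB (CRE) and TCAAGGTCA for ESRRA.
ATP5MC1: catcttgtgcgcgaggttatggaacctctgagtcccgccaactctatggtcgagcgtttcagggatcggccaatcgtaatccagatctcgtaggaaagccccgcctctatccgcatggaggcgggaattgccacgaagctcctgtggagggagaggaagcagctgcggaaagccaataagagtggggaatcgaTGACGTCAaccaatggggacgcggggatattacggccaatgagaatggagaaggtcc
NDUFS6: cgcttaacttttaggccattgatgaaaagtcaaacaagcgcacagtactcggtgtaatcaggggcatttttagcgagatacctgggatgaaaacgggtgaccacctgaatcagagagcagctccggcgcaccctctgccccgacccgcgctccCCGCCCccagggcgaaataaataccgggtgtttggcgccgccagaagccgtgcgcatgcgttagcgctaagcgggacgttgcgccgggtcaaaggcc
NDUFA6: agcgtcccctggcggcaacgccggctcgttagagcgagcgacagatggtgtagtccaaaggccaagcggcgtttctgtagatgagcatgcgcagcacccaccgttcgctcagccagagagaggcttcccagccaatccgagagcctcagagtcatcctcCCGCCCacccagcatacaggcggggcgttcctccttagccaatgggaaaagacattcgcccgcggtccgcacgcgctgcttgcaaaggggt
NDUFA7: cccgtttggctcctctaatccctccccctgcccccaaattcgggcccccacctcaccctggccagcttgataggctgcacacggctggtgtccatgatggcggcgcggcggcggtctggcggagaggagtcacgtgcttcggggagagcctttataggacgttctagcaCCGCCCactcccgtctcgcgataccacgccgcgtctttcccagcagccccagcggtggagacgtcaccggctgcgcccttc
COX5B: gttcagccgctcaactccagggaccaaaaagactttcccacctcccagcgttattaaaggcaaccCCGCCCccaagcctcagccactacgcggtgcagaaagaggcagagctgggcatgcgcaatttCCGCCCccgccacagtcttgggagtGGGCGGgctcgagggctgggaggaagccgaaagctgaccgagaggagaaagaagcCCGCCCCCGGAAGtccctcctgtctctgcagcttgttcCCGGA

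These stretches lie at chr17:48892537-48892786 (plus strand), chr5:1801157-1801406 (plus strand), chr22:42090773-42091022 (minus strand), chr19:8321376-8321625 (minus strand) and chr2:97645812-97646061 (plus strand) in that order. ATP5MC1 holds a CRE match from -57 to -50, counted from the start. NDUFS6 holds 1 SP1 match, from -97 to -92, in the orientation CCGCCC. NDUFA6 has an SP1 match from -91 to -86, and a YY1 match from 26 to 34, after the start and outside the letters shown. NDUFA7 has the same pair, an SP1 match from -81 to -76 and a YY1 match from 15 to 23, although it fell where NDUFA6 rose. COX5B has 4 SP1 matches, at -185, -123, -98 and -43, an ETS match from -37 to -31 that adjoins the last of them, and a further ETS match from -5 to 2 that runs over the start. In the whole window of 300 bases (250 before and 50 after the start), entries were found for 59 of the 68 members. NRF1 matches were in 13 of the 59 (22%, beside 6.28% of 27305 promoters), ETS in 17 (28.8%, beside 10.7%) and YY1 in 7 (11.9%, beside 1.85%). SP1 matches were in 35 (59.3%, beside 44.6%), CRE in 4 (6.78%, beside 1.98%) and ESRRA in 1 (1.69%, beside 0.359%). Among the 19 matched members that rose with HDAC5 shRNA, 4 had NRF1, 4 ETS, 3 YY1, 11 SP1 and 2 CRE matches. Among the 11 that fell, 1 had NRF1, 4 ETS, 2 YY1, 7 SP1 and 2 CRE matches. The same motifs thus occurred in members of either direction, and these counts describe letters in a window, with no test.

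Complex I, the NADH dehydrogenase, had 11 of 28 subunits higher (39.3%), 5 lower (17.9%) and 12 not called with HDAC5 shRNA (median 0.08). Of its 5 measured core subunits 1 was higher (20%). Of its 23 supernumerary ones, which surround the core, 10 were higher (43.5%) and 5 lower (21.7%). Among all genes 21.3% were higher and 23.2% lower. NDUFS6, a zinc-binding subunit of the NADH-oxidising arm, read 11.55, 11.67 and 11.54 on scramble arrays 1 to 3 and 12.10, 12.07 and 12.11 on shRNA arrays 1 to 3. All 3 shRNA arrays were above all 3 scramble arrays, and the rise was 0.51 (SE 0.04, limma adjusted p = 3.18e-06). NDUFA6, which holds the acyl carrier protein on the complex, read 11.13, 11.19 and 11.07 with scramble and 11.59, 11.54 and 11.65 with HDAC5 shRNA. It rose by 0.46 (SE 0.04, limma adjusted p = 1.07e-05) with no overlap, and its further probe set, at a lower signal, gave 0.69. NDUFB2, an accessory subunit of the membrane arm, read 10.96, 10.97 and 10.85 with scramble and 11.31, 11.26 and 11.38 with HDAC5 shRNA. Its rise of 0.39 (SE 0.045, limma adjusted p = 5.3e-05) was again without overlap.

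NDUFS3, the core subunit that rose, belongs to the arm that passes electrons towards coenzyme Q. It read 10.11, 10.13 and 9.94 with scramble and 10.43, 10.37 and 10.52 with HDAC5 shRNA, a rise of 0.38 (SE 0.06, limma adjusted p = 0.000406). NDUFA9, which sits beside the coenzyme Q site, read 10.77, 10.86 and 10.68 with scramble and 11.12, 11.05 and 11.21 with the shRNA, a rise of 0.36 (SE 0.05, limma adjusted p = 0.000399). Neither gene's arrays overlapped between groups. The other 4 core subunits were not called: NDUFS1 at 0.07, NDUFS7 at -0.00, NDUFV1, which binds NADH and FMN, at -0.06, and NDUFV2 at 0.06. For NDUFV1 the 95% interval of the change was -0.16 to 0.05, and for NDUFS7 it was -0.14 to 0.14.

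In the opposite direction, NDUFA7, a supernumerary subunit, read 9.91, 10.09 and 9.84 on the scramble arrays and 9.59, 9.49 and 9.55 on the HDAC5 shRNA arrays. All 3 shRNA arrays were below all 3 scramble arrays, and it fell by 0.40 (SE 0.06, limma adjusted p = 0.000449). NDUFA13, also known as GRIM-19, fell by 0.23 (limma adjusted p = 0.00427). NDUFA10 fell by 0.23, NDUFS4 by 0.14 and NDUFB5 by 0.12, each with shRNA arrays wholly below scramble. NDUFA10 kept its call in 11 of 15 alternatives, NDUFS4 in 12 and NDUFB5 in 10. NDUFA7 kept its call in all 15, and NDUFA13 in all 14 in which it was measured. The remaining complex I increases were smaller: NDUFB8 by 0.22, NDUFAB1, the mitochondrial acyl carrier protein itself, by 0.20, NDUFA2 by 0.19, NDUFA8 by 0.18, NDUFB3 by 0.14 and NDUFB11 by 0.13. NDUFB8 and NDUFAB1 kept their calls in all 15 alternatives, whereas NDUFB11 kept its call in 5 of 14.

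In complex II, succinate dehydrogenase, only the catalytic flavoprotein was called of the 3 subunits measured. SDHA, which oxidises succinate, read 9.46, 9.59 and 9.44 with scramble and 9.81, 9.80 and 9.92 with HDAC5 shRNA. It rose by 0.35 (SE 0.06, 95% interval 0.23 to 0.47, limma adjusted p = 0.000476) with no overlap between the groups. Its 1 probe set can match related transcripts, so SDHA was not measured in the alternative without such probe sets. The membrane anchors that carry the haem and coenzyme Q site did not pass the test. SDHC changed by 0.02 (95% interval -0.09 to 0.13) and SDHD by 0.00 (-0.11 to 0.11). The iron-sulphur subunit SDHB was not among the genes analysed here.

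Of the 7 subunits of complex III, the cytochrome bc1 complex, 3 were higher, 1 was lower and 3 were not called (median 0.05). UQCRQ, a small subunit next to cytochrome b, read 12.56, 12.58 and 12.55 with scramble and 12.79, 12.75 and 12.74 with HDAC5 shRNA, a rise of 0.20 (SE 0.03, limma adjusted p = 0.000187). UQCRC2, a core structural subunit, moved the other way, with 11.62, 11.55 and 11.55 under scramble and 11.36, 11.32 and 11.39 under the shRNA. It fell by 0.21 (SE 0.04, limma adjusted p = 0.000742), and neither gene's groups overlapped. CYC1, the cytochrome c1 that hands electrons to cytochrome c, rose by 0.16 (SE 0.05, limma adjusted p = 0.0196), with 11.23, 11.25 and 11.08 becoming 11.36, 11.35 and 11.32. UQCR10 rose by 0.13 but kept its call in 8 of 14 alternatives. UQCRB read 12.17 to 12.19 on all 6 arrays with the probe set used, while a further, dimmer probe set of that gene was higher by 0.27, so its probe sets disagreed.

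Complex IV, cytochrome c oxidase, was the complex with no increase called: 0 of 14 nuclear subunits were higher, 3 were lower and 11 were not called, with a median of -0.04. Of all genes 21.3% were higher, and the share lower, 21.4%, was close to the 23.2% of all genes. The 14 include 3 with dim signal on some or all arrays (COX6A2, COX7A1 and COXFA4L2). No alternative analysis called a complex IV subunit higher with HDAC5 shRNA. COX7C, a small membrane subunit, read 12.62, 12.62 and 12.58 with scramble and 12.46, 12.46 and 12.48 with HDAC5 shRNA, and fell by 0.14 (SE 0.03, limma adjusted p = 0.00163) without overlap. Its call was kept in 14 of 15 alternatives and lost, at -0.09, with probe sets that can match related transcripts set aside. COX5B, which covers the matrix side of the enzyme, read 11.939, 11.999 and 11.841 with scramble and 11.77, 11.78 and 11.79 with the shRNA. Its fall of 0.15 (SE 0.04, limma adjusted p = 0.015) was also seen in its 3 further probe sets, at -0.18, -0.15 and -0.28, but the call was kept in 10 of 15 alternatives. COX7A2 fell by 0.13 (SE 0.04, limma adjusted p = 0.027) and kept its call in 7 of 15.

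Tissue isoforms of complex IV were read in both forms for 3 pairs. COX6A1, the widespread form, read 13.08, 13.05 and 13.02 with scramble and 13.01, 12.99 and 12.95 with HDAC5 shRNA, and its change of -0.06 was not called (95% interval -0.13 to -0.00). Its heart and muscle counterpart COX6A2, the muscle form COX7A1 and the hypoxia-induced COXFA4L2 were below the lower quartile of an array's signal on some or all arrays, and none of the 3 was called with either shRNA. COXFA4, the paired form of the last, changed by 0.01 (95% interval -0.08 to 0.10). The regulatory subunit COX4I1 changed by -0.04 (95% interval -0.12 to 0.04).

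Complex V, the ATP synthase, had 7 of 16 members higher (43.8%), 3 lower (18.8%) and 6 not called (median 0.09). Without ATP5MG, whose probe sets disagreed, 6 of 15 were higher. Among all genes 21.3% were higher and 23.2% lower. The membrane ring of the ATP synthase is built of 1 mature protein, subunit c. It is encoded by several genes differing in their import sequence, and these genes moved apart. ATP5MC1 read 10.23, 10.28 and 10.05 with scramble and 10.76, 10.70 and 10.78 with HDAC5 shRNA. The rise of 0.56 (SE 0.06, limma adjusted p = 2.73e-05) was the largest among the members. The 1 probe set of ATP5MC1 can match related transcripts, so the alternative without such probe sets did not measure it. Its call was kept in the 14 alternatives that did. ATP5MC3 read 12.50, 12.46 and 12.48 with scramble and 12.69, 12.71 and 12.76 with the shRNA, a rise of 0.24 (SE 0.03, limma adjusted p = 7.62e-05). ATP5MC2 read 11.94, 11.96 and 11.79 with scramble and 11.67, 11.68 and 11.74 with the shRNA, a fall of 0.20 (SE 0.05, limma adjusted p = 0.00501). The groups did not overlap for any of the 3. The call for ATP5MC2 was lost with the mean of its probe sets, which include a dim one at -0.03. It was also lost with probe sets that can match related transcripts set aside, which left the dim one alone.

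ATP5IF1, which blocks the enzyme when it would hydrolyse ATP, read 9.69, 9.75 and 9.61 with scramble and 9.89, 9.94 and 9.82 with HDAC5 shRNA and rose by 0.20 (SE 0.05, limma adjusted p = 0.00923). ATP5PF of the peripheral stalk, which holds the catalytic head still, rose by 0.14 (SE 0.03, limma adjusted p = 0.0031), with 11.74, 11.71 and 11.72 becoming 11.85, 11.90 and 11.85. In the same stalk ATP5PB rose by 0.11, ATP5PD fell by 0.13 and ATP5PO was not called at 0.03. Of the 5 subunits of the catalytic head all had positive values, from 0.07 to 0.13, and only ATP5F1B, the catalytic beta subunit, was called, at 0.13. ATP5ME, a membrane subunit, fell by 0.12 and kept its call in 5 of 14 alternatives. For ATP5MG, another membrane subunit, the probe sets disagreed. The one used read 12.46, 12.50 and 12.37 with scramble and 12.73, 12.64 and 12.78 with the shRNA (0.27, SE 0.04, limma adjusted p = 0.000561). With probe sets that can match related transcripts set aside, the gene was lower by -0.14 (limma adjusted p = 0.0452), so no direction is given for it.

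**Figure D2:**
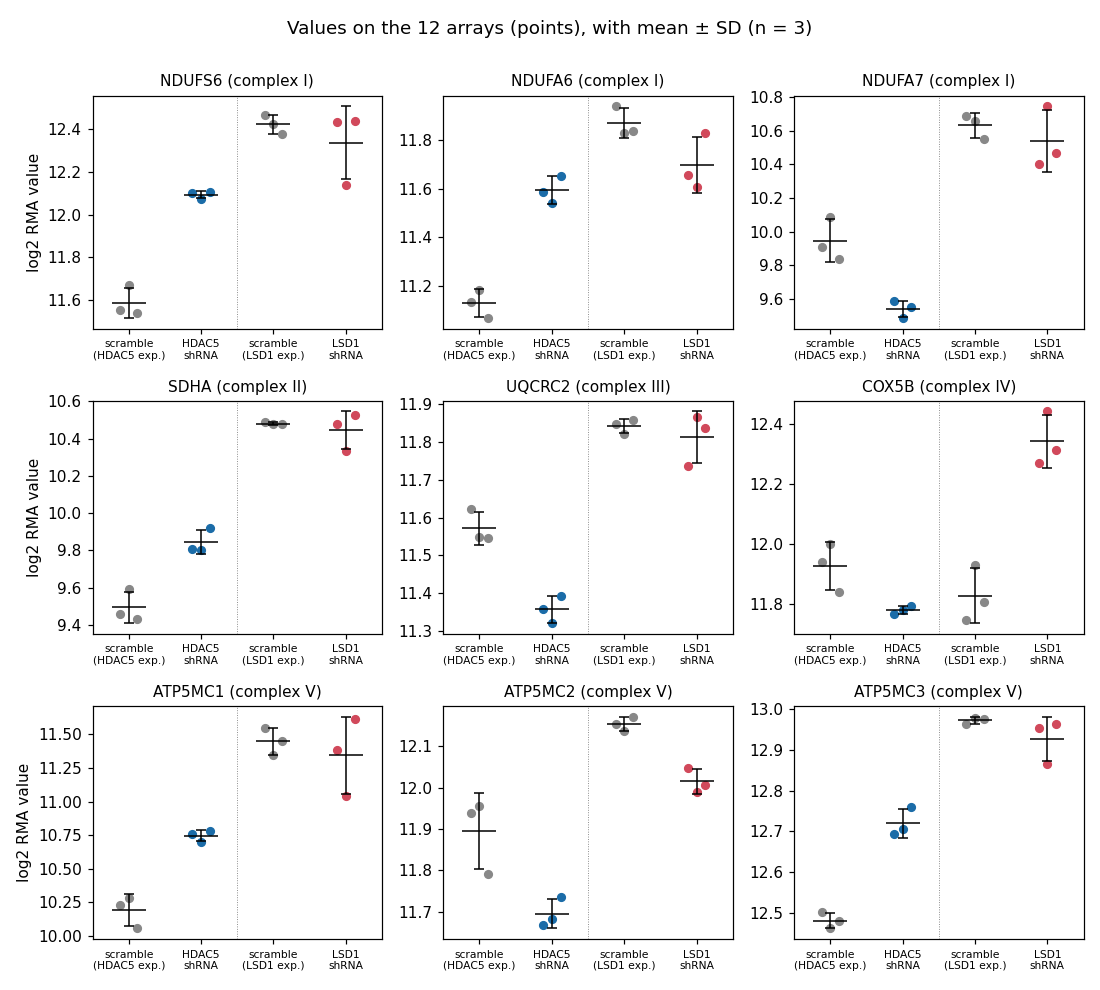
Log2 RMA value (vertical axis) on each of the 12 arrays for members with large or opposite changes, with 1 point per array, the 4 groups along the horizontal axis and the mean ± SD of each group (n = 3). The HDAC5 shRNA arrays of ATP5MC1 lie at 10.70 to 10.78, above scramble arrays at 10.05 to 10.28, and the LSD1 shRNA arrays of COX5B lie at 12.27 to 12.44, above scramble arrays at 11.75 to 11.93.

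The mean over a complex was also taken array by array. Relative to the scramble mean, the 3 HDAC5 shRNA arrays lay at 0.06 to 0.11 for complex I, 0.11 to 0.13 for complex II (where SDHA alone was called), 0.03 to 0.04 for complex III and 0.09 to 0.11 for complex V. For complex IV they lay at -0.06 to -0.03. The shRNA arrays did not overlap the scramble arrays for complexes I, II, IV and V, but for complex III the lowest shRNA array (0.03) lay below scramble array 1 (0.03). Scramble array 3 stood apart: 59 of 68 members were below their scramble mean on it, and without it 20 members were called higher and 12 lower.

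**Figure D3:**
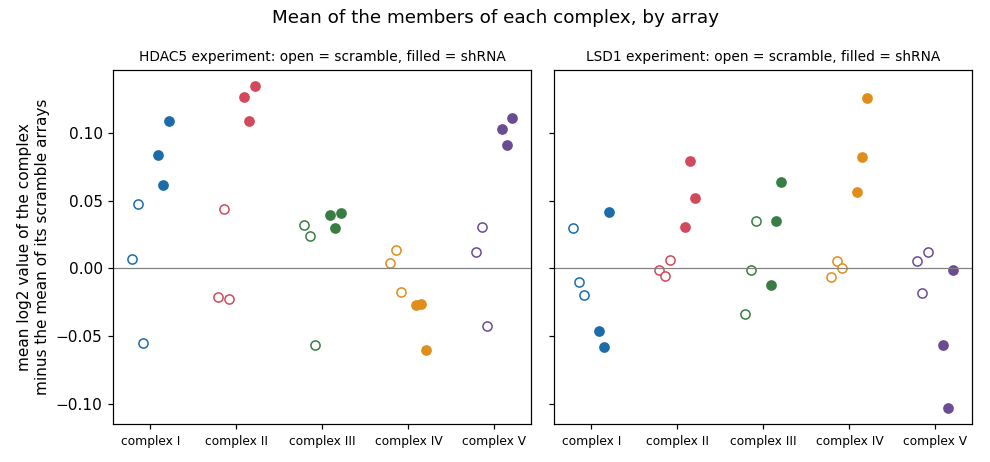
Mean log2 value over the members of each complex on every array, as the difference from the mean of that experiment's scramble arrays (vertical axis), with 1 point per array (open for scramble, filled for shRNA). The HDAC5 shRNA arrays lie at 0.09 to 0.11 for complex V and at -0.06 to -0.03 for complex IV, where the LSD1 shRNA arrays lie at 0.06 to 0.13.

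With LSD1 shRNA, changes were called in complexes I and IV alone. Of 68 members 5 (7.35%) were called, beside 4.92% of all genes, again near the background. Of these 4 were higher, beside 2.93% of all genes, and 1 was lower, beside 2.00%. The median change was -0.02 for the members and 0.01 for all genes. At an unadjusted p under 0.05, 17 members would pass (8 higher, 9 lower), as did 22% of all genes (1433 higher, 1196 lower). In 27 members (39.7%) the LSD1 shRNA arrays did not overlap the scramble arrays, beside 27.0% of all genes, 13 of them higher and 14 lower. By complex, 2 of 28 were higher and 1 lower in complex I, 2 of 14 were higher in complex IV, and none was called in complexes II, III and V.

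COX5B had the largest change, in the direction opposite to that with HDAC5 shRNA. It read 11.75, 11.93 and 11.81 on scramble arrays A to C and 12.27, 12.44 and 12.32 on LSD1 shRNA arrays 1 to 3, a rise of 0.52 (SE 0.07, 1.43-fold, limma adjusted p = 0.0166). Its 3 further probe sets gave 0.47, 0.54 and 0.88, of which the first was called. COX6A1, of the same complex, read 13.27, 13.30 and 13.26 with scramble and 13.42, 13.45 and 13.45 with LSD1 shRNA, a rise of 0.17 (SE 0.03, limma adjusted p = 0.0336). Neither gene's groups overlapped.

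In complex I, NDUFA8, an accessory subunit folded in the intermembrane space, read 10.69, 10.83 and 10.76 with scramble and 11.12, 11.11 and 11.25 with LSD1 shRNA, a rise of 0.40 (SE 0.08, limma adjusted p = 0.0363). NDUFS1, the large iron-sulphur core subunit, read 10.57, 10.58 and 10.52 with scramble and 10.85, 10.94 and 11.02 with LSD1 shRNA, a rise of 0.38 (SE 0.08, limma adjusted p = 0.0421). NDUFC1, a small subunit of the membrane arm, read 11.66, 11.57 and 11.59 with scramble and 11.08, 11.03 and 11.33 with LSD1 shRNA, a fall of 0.46 (SE 0.09, limma adjusted p = 0.0421). In all 3 the groups were separate, although NDUFC1 on shRNA array 3 stood closer to scramble. The changes kept their direction in the alternatives, at 0.46 to 0.88 for COX5B and 0.12 to 0.20 for COX6A1. They were 0.36 to 0.46 for NDUFA8, 0.34 to 0.43 for NDUFS1 and -0.55 to -0.40 for NDUFC1. The 0.88 of COX5B came with probe sets that can match related transcripts set aside, and its call was lost there. That alternative kept 2 of the 4 calls measured, median centring kept 2 of 5, and the fit without limma's trend kept 3 of 5. Nor did the calls hold when arrays were left out. None of the 5 was kept without scramble array C or without shRNA array 1, 1 was kept without scramble array A, scramble array B or shRNA array 3, and 4 were kept without shRNA array 2. With arrays centred on the median, 1 member was higher and 1 lower.

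In the ATP synthase no member was called with LSD1 shRNA. Of its 16 values 12 (75%) were negative, beside 48.3% of all genes, with a median of -0.07, and the group was not tested. Its shRNA arrays lay at -0.10 to -0.00 around the scramble mean, and array 3 overlapped the scramble range. ATP5MC1 read 11.55, 11.34 and 11.45 with scramble and 11.38, 11.04 and 11.61 with LSD1 shRNA, a difference of -0.10 (95% interval -0.45 to 0.24), so a change of the size found with HDAC5 shRNA lay outside the interval. SDHA differed by -0.04 (95% interval -0.23 to 0.16) and ATP5IF1 by -0.00 (-0.21 to 0.20). For complex IV the 3 shRNA arrays lay at 0.06 to 0.13, above all 3 scramble arrays, and 10 of its 14 values (71.4%) were positive, beside 51.7% of all genes (median 0.08).

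The difference between the changes was then tested in 1 fit of all 12 arrays. The comparisons share no array, but levels stood higher in the LSD1 experiment, and each change was taken against its own scramble arrays. The change differed in 22 of 68 members (32.4%), beside 31.8% of all genes. In 16 the value with HDAC5 shRNA minus that with LSD1 shRNA was positive, beside 15.7% of all genes, and in 6 it was negative, beside 16.1%. With arrays centred on the median the split was 15 positive to 1 negative, or 93.8% positive instead of 72.7%, and with quantile normalization over the 12 arrays it was 12 to 10, or 54.5%. The median difference of all genes moved too, from -0.03 to 0.04 with centring and to 0.002 with quantile normalization. The positive members were 8 of complex I, 1 each of complexes II and III, and 6 of complex V. The negative ones were 4 of complex IV and 2 of complex I, and 0 members of complex IV were positive in any alternative.

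The largest differences were in COX5B and ATP5MC1, on opposite sides. COX5B, down by 0.15 with HDAC5 shRNA and up by 0.52 with LSD1 shRNA, differed by -0.66 (limma adjusted p = 0.000198), and it was the 1 negative call kept in all alternatives. ATP5MC1 differed by 0.66 (limma adjusted p = 0.0105), NDUFA6 by 0.63 (0.000332) and NDUFS6 by 0.60 (0.00101). In these 3 the HDAC5 value was a called rise and the LSD1 value was -0.10, -0.17 and -0.09, none of them called. NDUFS3 differed by 0.51, NDUFA9 by 0.43, NDUFA2 by 0.39 and SDHA by 0.38, with the same arrangement. NDUFC1 differed by 0.48, where only the LSD1 value was a call, and NDUFA10 by -0.45, where only the HDAC5 value was. COX6A1 and COX7C each differed by -0.23 and COX6C by -0.29, so 4 of the 6 negative differences lay in cytochrome c oxidase. For NDUFB2 the difference was 0.02 and not called, from 0.39 with HDAC5 shRNA and 0.37, itself not called, with LSD1 shRNA.

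Of the 22 members that rose with HDAC5 shRNA, 8 had a positive and 14 a negative value with LSD1 shRNA. Of the 12 that fell, 3 had a positive and 9 a negative value. Over all 68 members 30 (44.1%) were positive and 38 (55.9%) negative with LSD1 shRNA, beside 51.7% and 48.3% of all genes. NDUFA8 was the member called higher with both shRNAs, at 0.18 and 0.40.

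**Figure D4:**
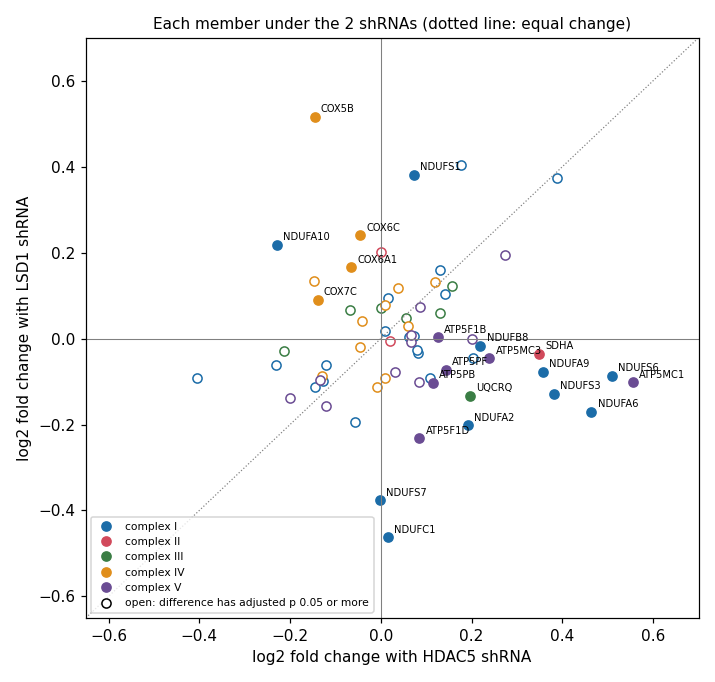
Change with HDAC5 shRNA (horizontal axis, log2) against change with LSD1 shRNA (vertical axis, log2) for the 68 members, coloured by complex and filled where the difference was called. ATP5MC1 (0.56, -0.10) and NDUFS6 (0.51, -0.09) lie to the right, COX5B (-0.15, 0.52) to the upper left, and NDUFA8 (0.18, 0.40) in the upper right.

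Genes that build, supply or regulate the complexes were read from lists chosen by function, beside 21.3% of all genes higher and 23.2% lower with HDAC5 shRNA. Mitochondrial ribosomal proteins, which translate the subunits encoded in mitochondria, had 25 of 51 members higher (49%) and 4 lower (7.84%), led by MRPS7 (0.87), MRPS28 (0.68) and MRPL39 (0.64). Protein import and carriers had 17 of 25 higher (68%) and 6 lower (24%), with the outer membrane channel TOMM40 at 1.06, the chaperonin partner HSPE1 at 0.65 and the receptor TOMM22 at 0.58. Their medians were 0.13 and 0.25, beside -0.02 for all genes. Mobile carriers and coenzyme Q synthesis had 7 of 13 higher (53.8%) and 3 lower (23.1%), among them PDSS1, which makes the side chain of coenzyme Q, at 0.79, and HCCS, which attaches haem to cytochrome c, at 0.39.

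Assembly factors had 11 of 32 higher (34.4%) and 13 lower (40.6%) with HDAC5 shRNA, both above the shares of all genes. The complex IV factors COX20 and SCO2, which assist the delivery of copper, were at 0.62 and 0.61. By contrast SURF1, of the same complex, was at -0.57 and TTC19, of complex III, at -0.60. COX20 was weakly expressed, with means of 5.27 (scramble) and 5.89 (shRNA), beside lower quartiles of 4.98 to 5.07 on those arrays. A further, dimmer probe set of SURF1 was not called at -0.04. The citric acid cycle and pyruvate entry had 8 of 23 higher (34.8%) and 5 lower (21.7%), with the succinyl-CoA ligase subunit SUCLG2 at -0.50, pyruvate carboxylase PC at -0.49 and the pyruvate carrier MPC2 at 0.44. Regulators of mitochondrial gene expression had 6 of 18 higher and 6 lower (33.3% each), among them the rRNA methyltransferase TFB1M at -0.79, MYC at -0.75 and GABPB1, a subunit of the ETS-family factor GABP, at 0.60.

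With LSD1 shRNA, where 2.93% of all genes were higher and 2.00% lower, each list held at most 4 calls. Import had 2 of 25 higher and 2 lower (8% each), with TOMM34 at 0.52 and the outer membrane channel VDAC2 at -0.28. Assembly factors had 2 of 32 higher (6.25%), UQCC1 of complex III at 0.36 and TMEM126B of complex I at 0.33, and 0 lower. Mitochondrial ribosomal proteins had 1 of 51 higher (1.96%), MRPS33 at 0.46, and regulators had 1 of 18 higher (5.56%), MTERF4 at 0.61. The ligase subunit SUCLA2 was the 1 of 23 lower (4.35%) in the citric acid cycle list, at -0.48, and COQ2, which joins the ring and side chain of coenzyme Q, was the 1 of 13 lower (7.69%) in its list, at -0.92.

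**Figure D5:**
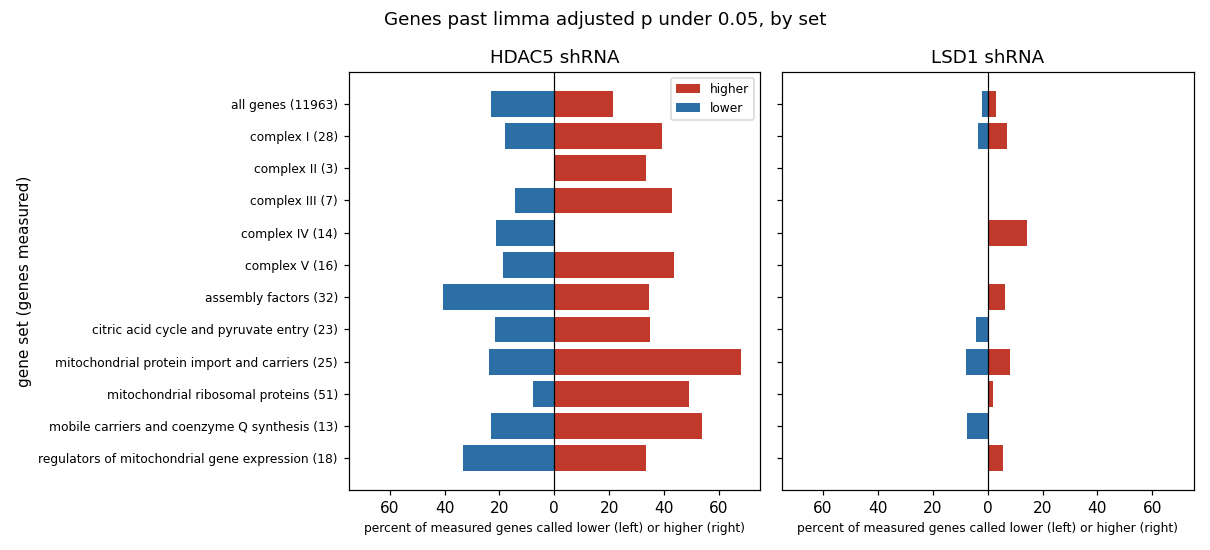
Percent of measured genes called higher (to the right) and lower (to the left) in each complex and in each list of related genes, with HDAC5 shRNA and LSD1 shRNA in separate panels. All genes lie at 21.3% higher and 23.2% lower with HDAC5 shRNA, and complex IV has no bar for higher genes there.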

How the data were processed

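Expression was measured on 12 Affymetrix 3′ arrays, 3 per group. The deposited log2 values, which give each probe set on each array, came from RMA with the affy package according to the submitters' processing notes, with no version in the sources used here. RMA equalises the arrays it is given and compresses small ratios at low signal. Of 22277 probe sets, 19064 had 1 gene symbol, 1043 had several, 2108 had none and 62 were controls. Current RefSeq symbols (GRCh38.p14) were found by gene ID for 19052 probe sets. Each gene kept the probe set with the highest mean, with no filter on dim signal. In 38 of the 68 members that probe set can match several transcripts (its name ends in _s_at or _x_at), and 33 further probe sets were read for 21 members.

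Each shRNA was compared with its scramble arrays over the 6 arrays of its experiment, and the difference of the changes over all 12, using lmFit and eBayes (trend) of limma 3.58.1 under R 4.3.3. The p-values were adjusted by Benjamini-Hochberg over 11963 genes, with a threshold of 0.05. The fits were tested on simulated data. The number of arrays limits the precision. The submitters' design text gives 4 treatments, each with 3 replicates, and the untagged scramble set was taken as the HDAC5 control since the other is tagged LSD1.

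The members and the lists were chosen with earlier results of these data known, and no list was tested as a set. Named genes were the targets; per complex up to 6 members called with HDAC5 shRNA by size; members called with LSD1 shRNA; up to 10 differences by size; all of complex II, subunit c genes, ATP5IF1 and isoform pairs; and up to 3 called genes per list. Other called members are named to account for every call. Alternatives were probe sets averaged per gene, no _x_at or _s_at probe sets, a lower-quartile filter, quantile normalization, median centring, no trend, array weights, each array left out, 1 fit of 12 arrays and a replicate block.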

Additional observations from a re-analysis of the deposited data

Results flagged for a closer look

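In 22 members the change with HDAC5 shRNA differed from that with LSD1 shRNA, by a limma test of the difference itself. The 10 largest differences (HDAC5 minus LSD1, log2) were -0.66 in COX5B, 0.66 in ATP5MC1, 0.63 in NDUFA6, 0.60 in NDUFS6, 0.51 in NDUFS3, 0.48 in NDUFC1, -0.45 in NDUFA10, 0.43 in NDUFA9, 0.39 in NDUFA2 and 0.38 in SDHA. The share of members that differed, 32.4%, was near the 31.8% of all genes. The ACTB 3′-minus-5′ signal was lower by -0.22 with HDAC5 shRNA and higher by 0.13 with LSD1 shRNA, and its part in these differences was not tested.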

How the results depend on the processing

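The called changes with HDAC5 shRNA kept their direction in the alternatives run, apart from ATP5MG, which was at -0.14 without _x_at and _s_at probe sets and whose difference between the shRNAs was then -0.36, while that of UQCRB was 0.53. Against 22 members higher with HDAC5 shRNA, 13 were higher without those probe sets (45 members measured), and leaving out each array in turn gave 16 to 21. Against 12 lower, 7 were lower with arrays centred on the median, 7 without the trend and 6 in 1 fit of 12 arrays, and leaving out arrays gave 7 to 12. With LSD1 shRNA, against 4 higher, 1 was higher without those probe sets, 1 with median centring, 7 in 1 fit of 12 arrays and 0 to 6 with arrays left out. Against 1 lower, 0 were lower without the trend, 4 with array weights, 6 in 1 fit of 12 arrays and 0 to 1 with arrays left out. Without scramble B and LSD1 shRNA 2, the arrays with the highest overall medians in their groups, 1 was higher and 0 lower, an alternative chosen after seeing the data. The LSD1 median of the members moved to -0.061 with median centring, and that of all genes to -0.036. For the difference, against 16 higher and 6 lower, 10 were higher without those probe sets, 10 were lower with quantile normalization and 1 was lower with median centring, and leaving out arrays gave 13 to 17 and 5 to 7. The causes of these shifts were not tested. With a replicate block in the HDAC5 experiment, 20 members were higher and 8 lower, and 28 of the 34 calls were kept. Same-numbered arrays had correlations of -0.05, -0.21 and -0.15, so the numbers do not pair them. No paired analysis was possible because the LSD1 arrays and their scramble arrays share no replicate labels. The smallest change called was 0.11 with HDAC5 shRNA and 0.17 with LSD1 shRNA.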
